A study of Homo sapiens with 2 samples.

Results

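The report concerns 49 genes of the Fanconi anaemia pathway, homologous recombination, mismatch repair, end joining, single-strand break repair and the DNA damage checkpoint, out of 62699 genes in the count table. They were taken by symbol from a list drawn up by function, all 49 were found, and all 49 reached 1 CPM (a count scaled by library size) in at least 1 library. RNA was sequenced from HCC1954, an established HER2-positive human breast cancer cell line, in 1 library labelled ASO-NC and 1 labelled ASO-1235. The series asks what the long non-coding RNA LINC01235 does to transcription in these cells. The groups differ in the agent alone as far as the labels go (dose and duration: not given in the sources used here). The sample titles read NC1235 for ASO-NC and Si1235 for ASO-1235, so titles and labels name the agent in different ways. With a single library on each side there are no replicates to check a difference against and no p-values, and the comparisons are of these libraries rather than of the conditions.

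Cells meet DNA damage with several linked systems. Crosslinks between the strands are recognised by the Fanconi core complex, which attaches ubiquitin to the FANCD2 and FANCI pair, and the resulting break is repaired by homologous recombination, in which BRCA1, BRCA2 and their partners load a recombinase onto resected DNA. End joining seals breaks directly throughout the cell cycle, whereas recombination copies the sister chromatid and is therefore used in S and G2 phase. The kinases ATM and ATR sense breaks and stalled forks and signal through CHEK2 and CHEK1. Several of these genes are transcribed mainly in S phase, and in tumours the loss of recombination genes is known for sensitivity to PARP inhibitors.

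The ASO-NC library held 48092494 counts and the ASO-1235 library 37916307. LINC01235 itself stood at 1337 counts (ASO-NC) and 0 (ASO-1235), which is 377-fold lower in the latter with a floor of 3 counts per library. That fold rests on the floor and is not a lower bound. The counting interval of the ratio of ASO-1235 over ASO-NC, as defined below, ran from 0 to 0.00654. Of the breast epithelial markers all 7 passed 1 CPM, among them ERBB2 with 226962 and 180711 counts. Of the others, 1 of 6 fibroblast, 1 of 6 immune and 1 of 4 endothelial markers did. These were COL1A1 with 2067 (ASO-NC) and 1559 (ASO-1235) counts, LYZ with 98 and 44, and VWF with 345 and 249. The fibroblast marker PDGFRB was at 0 in both libraries, while COL1A1, at 44.5 and 39.7 CPM, made up most of the fibroblast sum. Summed marker levels were 45.4 and 40.6 CPM for fibroblasts, 2.24 and 1.53 CPM for immune cells, and 8.12 and 7.36 CPM for endothelium, in the ASO-NC and ASO-1235 libraries.

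In what follows a ratio is the CPM in the ASO-1235 library over that in the ASO-NC library after TMM scaling, which assumes that most genes do not differ. The range in parentheses is an exact 95% (Clopper-Pearson) interval on halved counts, because both mates of a read pair seem to have been counted, and it covers counting error only. Where a ratio of 2 genes' ratios is given, its range is a normal approximation on the log scale from the same halved counts. A gene is called when its interval excludes 1 and it passes a threshold: either 1.5-fold, or the milder one used below unless stated otherwise, which is at least 25% higher or at least 20% lower.

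With TMM scaling, 9 of the 49 damage response genes were called between the libraries. Their ratios ran from 0.637 for RAD54L to 1.59 for LIG4, with a median log2 ratio of −0.07 beside −0.02 for all 14291 genes at 1 CPM. Of the 49, 32 had ratios below 1, where 52.5% of all genes did. Under scaling by total count 23 were below 1, and the median log2 ratio of all genes was then 0.09. An interval wholly below 1 was found for 18 members (25.1% of all genes) and one wholly above 1 for 6 (21.3%). At 1.5-fold, 1 member, RAD54L, was lower (background 2.34% of genes) and 1, LIG4, was higher (background 4.72%). At the milder threshold 7 were lower, where 10.1% of all genes were, and 2 were higher, where 11.0% of all genes were. Taking the 9087 genes whose mean CPM was at least 10, the log2 ratio had a 5th percentile of −0.40 and a 95th of 0.41, and 42 of the 49 members fell inside that range. That mean was reached by 44 of the 49. It was not reached by RAD54L (8.88 CPM in ASO-NC and 5.65 in ASO-1235) and XRCC4 (2.07 and 2.80), which lay outside the range. These figures depend on the scaling and on base composition. Under total count scaling 5 were called lower, a setting for which no share of all genes called is given here. With the trend on GC content and length removed 12 were called lower, where 6.81% of all genes were.

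The 7 members outside that percentile range were RAD54L, FANCA, XRCC3, EXO1 and FANCG on the low side and LIG4 and XRCC4 on the high side. The lowest was RAD54L (ENSG00000085999.13, chromosome 1, 46247688 to 46278473, plus strand), a motor protein that helps the recombinase invade the intact duplex, with 412 counts (ASO-NC) and 222 (ASO-1235) and a ratio of 0.637 (0.501 to 0.806). FANCA (ENSG00000187741.16, chromosome 16, 89737549 to 89816657, minus strand), a subunit of the Fanconi core complex, had 1835 counts (ASO-NC) and 1066 (ASO-1235), a ratio of 0.686 (0.616 to 0.764). At the other end stood LIG4 (ENSG00000174405.15, chromosome 13, 108207439 to 108218368, minus strand), the ligase that seals breaks in end joining, with 596 counts (ASO-NC) and 803 (ASO-1235), a ratio of 1.59 (1.37 to 1.86). ATM (ENSG00000149311.20, chromosome 11, 108222484 to 108369102, plus strand), the kinase at the head of the response to DNA breaks, was the other member called higher, with 1857 counts (ASO-NC) and 1971 (ASO-1235) and a ratio of 1.254 (1.15 to 1.37). The intervals of these 4 genes excluded 1, while that of XRCC4, 1.35 (0.902 to 2.04) from 96 and 110 counts, included it.

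**Figure D1:**
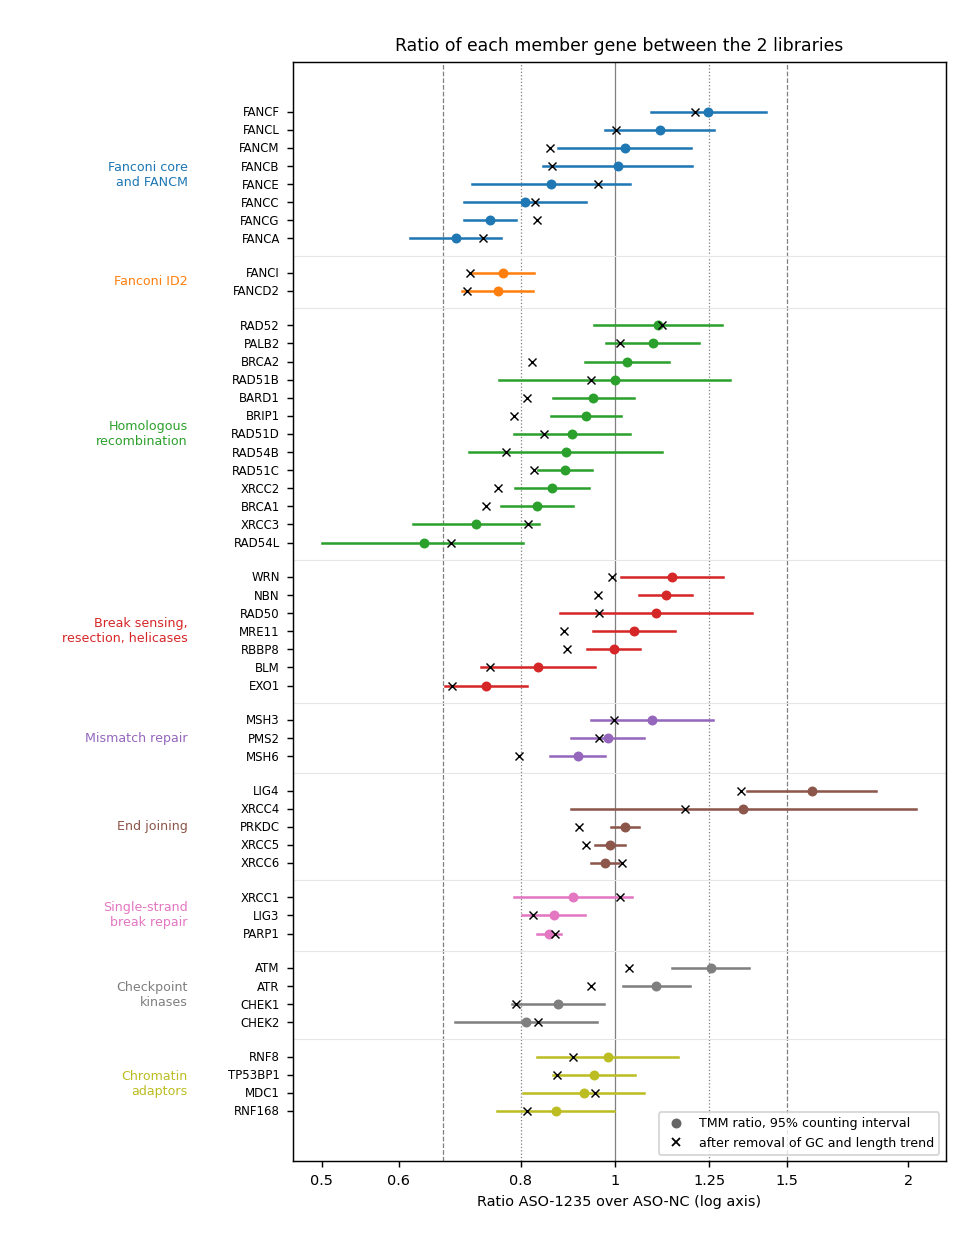
Ratio of ASO-1235 over ASO-NC (log axis) for each of the 49 genes, arranged by function; points are TMM ratios, bars 95% counting intervals, crosses the ratio after removal of the trend with GC content and transcript length, and dotted and dashed lines mark the milder threshold and 1.5-fold. LIG4 at 1.59 and RAD54L at 0.637 are the extremes, and most of the other genes lie between the dotted lines.

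To show what lies at the starts of these genes, the 250 bases before the start were considered for the called members and for members whose windows hold letters bound by E2F factors, which drive S phase genes. Of these 10 windows, the 3 with at most 30 bases in an annotated exon are printed: RAD54L and FANCA, the lowest ratios, and FANCC, which holds E2F letters. Sequences are from RefSeq on GRCh38.p14, read 5′ to 3′ on the gene's strand, from the most upstream of the listed starts. Capitals mark TTTCCCGC or TTTGGCGC (E2F), TTTGAA (the CHR element of late cell cycle genes) or CCAAT (bound by NF-Y), on either strand, so that ATTGG is CCAAT on the other strand. The windows follow.
RAD54L: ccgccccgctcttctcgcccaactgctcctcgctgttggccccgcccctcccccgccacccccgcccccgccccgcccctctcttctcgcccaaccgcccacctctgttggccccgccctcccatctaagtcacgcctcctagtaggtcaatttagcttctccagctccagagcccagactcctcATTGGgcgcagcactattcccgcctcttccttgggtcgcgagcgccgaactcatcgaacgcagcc
FANCA: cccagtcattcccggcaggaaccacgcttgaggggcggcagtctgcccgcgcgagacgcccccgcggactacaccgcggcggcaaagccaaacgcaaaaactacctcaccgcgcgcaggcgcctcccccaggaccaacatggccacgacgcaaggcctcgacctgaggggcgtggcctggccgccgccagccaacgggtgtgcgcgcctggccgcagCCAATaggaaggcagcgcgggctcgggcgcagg
FANCC: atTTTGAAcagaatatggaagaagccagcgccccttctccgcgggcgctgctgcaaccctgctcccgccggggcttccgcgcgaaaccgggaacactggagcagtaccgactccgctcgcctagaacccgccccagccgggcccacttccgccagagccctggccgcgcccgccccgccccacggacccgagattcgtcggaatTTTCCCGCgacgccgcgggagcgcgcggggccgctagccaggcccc
RAD54L is read from chr1:46247438-46247687 on the plus strand, FANCA from chr16:89816648-89816897 on the minus strand and FANCC from chr9:95317710-95317959 on the minus strand.

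RAD54L and FANCA, both lower in the ASO-1235 library, each held 1 CCAAT in these windows and neither TTTCCCGC nor TTTGGCGC. FANCC held the E2F letters TTTCCCGC 46 bases before its start and TTTGAA 248 bases before it, and had a ratio of 0.809 (0.700 to 0.935). The promoter table held 43 of the 49 members, in 63 windows, and lacked FANCI, RAD54B, NBN, WRN, XRCC5 and PRKDC. Either E2F motif was in 3.17% of the member windows (FANCC and MSH3) and in 1.93% of all 35116 windows, CCAAT in 42.9% and 32%, and TTTGAA in 7.94% and 13.3%. Of the 11 members with S phase expression in the table, 0 held TTTCCCGC or TTTGGCGC and 7 held CCAAT in at least 1 window. These are counts of exact letters in a short window and not of bound sites. Other forms of the E2F site were not searched, so a window without these letters may still hold one.

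Levels are compared between genes only as CPM per kb of the longest annotated transcript, a rough measure, since that transcript need not be the one expressed. The highest was XRCC6, a Ku protein, at 123 (ASO-NC) and 120 (ASO-1235) CPM per kb. Its partner XRCC5, with which it rings broken ends, stood at 79.5 (ASO-NC) and 78.5 (ASO-1235) CPM per kb. Between them stood PARP1, which marks nicks with poly(ADP-ribose), at 119 (ASO-NC) and 101 (ASO-1235) CPM per kb. The lowest was RAD50, the coiled-coil subunit of the break-sensing complex, at 0.853 (ASO-NC) and 0.941 (ASO-1235) CPM per kb. RAD50 shares 79.7% of its exon bases with the overlapping gene AC116366.3, listed at 0 in both libraries, so its level is uncertain without knowing how reads in more than 1 gene were counted (not given in the sources used here). XRCC4, the scaffold of the end joining ligase, was next at 1.22 (ASO-NC) and 1.65 (ASO-1235) CPM per kb. The levels thus ran from 0.853 to 123 CPM per kb in the ASO-NC library, while no ratio between the libraries reached 2-fold.

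**Figure D2:**
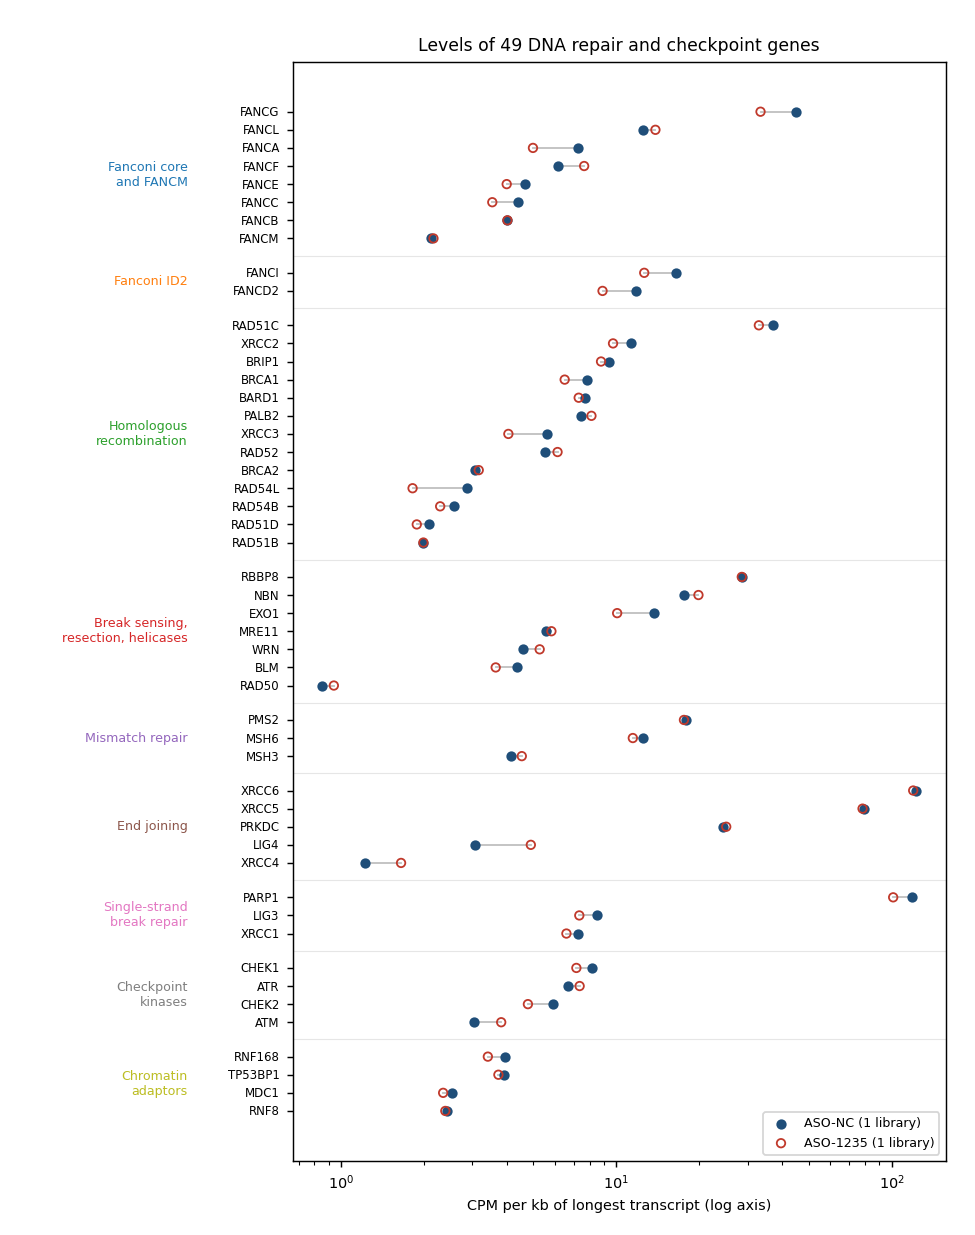
Level of each of the 49 genes in CPM per kb of the longest transcript (log axis), with filled points for the ASO-NC library and open points for the ASO-1235 library. XRCC6, at 123 and 120, and PARP1, at 119 and 101, are highest, RAD50 is lowest, and the points of most genes nearly coincide.

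Within the Fanconi pathway, the core subunits did not share a direction with TMM scaling. Of the 8 genes of the core complex with its anchor FANCM, 2 were called lower, where 10.1% of all genes were. Ratios were below 1 for 4 of the 8, where 52.5% of all genes were, and above 1 for 4. FANCG, which joins FANCA in a subcomplex, had 5481 counts (ASO-NC) and 3455 (ASO-1235), a ratio of 0.745 (0.701 to 0.791). FANCC and FANCE, which bridge the core complex to its substrate, were at 0.809 (0.700 to 0.935) and 0.860 (0.713 to 1.04). FANCF, an adaptor of the complex, lay on the other side at 1.247 (1.09 to 1.43), just short of the threshold, with 11.3% of its exon bases shared with GAS2 on the opposite strand. FANCL, the ubiquitin ligase itself, was at 1.11 (0.977 to 1.27). FANCB, on which the catalytic module is built, was at 1.01 (0.844 to 1.20) and just below 1 with DESeq2 size factors, and FANCM, the translocase that anchors the complex on DNA, was at 1.02 (0.875 to 1.20). The intervals of FANCL, FANCB and FANCM included 1, so of the 4 genes above 1 the interval of FANCF alone excluded it. With the trend on GC content and length removed 6 of the 8 were below 1, where 56.4% of all genes were. Their median log2 ratio was then −0.22, beside −0.10 before. FANCB was at 0.863 (0.723 to 1.028), FANCM at 0.858 (0.733 to 1.004), FANCL at 1.003 (0.881 to 1.14) and FANCF at 1.207 (1.05 to 1.38).

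The substrate pair of that ligase was lower in the ASO-1235 library by nearly the same amount for both partners. FANCD2 had 2848 counts (ASO-NC) and 1827 (ASO-1235), a ratio of 0.758 (0.697 to 0.824), and FANCI had 3623 counts (ASO-NC) and 2353 (ASO-1235), a ratio of 0.767 (0.712 to 0.826). The ratio of FANCD2 over that of FANCI was 0.988, with an interval of 0.884 to 1.10. Under total count scaling neither was called, at 0.814 and 0.824 with a median log2 ratio of −0.29. The median of the pair was −0.50, and both were called, after the trend with GC content and length was removed.

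Of the 13 genes of homologous recombination, 10 had ratios below 1, where 52.5% of all genes did. Called lower were 2 and called higher 0, where 10.1% and 11.0% of all genes were. Their median log2 ratio was −0.15, −0.04 under total count scaling and −0.30 with the trend on GC content and length removed. With that trend removed 5 of the 13 were called lower, where 6.81% of all genes were. BRCA1, the ubiquitin ligase that promotes resection, had 2634 counts (ASO-NC) and 1854 (ASO-1235) and a ratio of 0.832 (0.764 to 0.905). Its obligate partner BARD1 was at 0.951 (0.864 to 1.05), an interval that includes 1, and the ratio of BRCA1 over that of BARD1 was 0.875 (0.771 to 0.992), or 0.907 (0.80 to 1.03) with the trend removed. BRIP1, the helicase that binds BRCA1, was at 0.934 (0.860 to 1.01). BRCA2, which carries the recombinase to DNA, was at 1.03 (0.931 to 1.14) from 1711 and 1489 counts, and PALB2, which links it to BRCA1, was at 1.09 (0.980 to 1.22). The intervals of the loader and its linker thus included 1, and BARD1 and BRIP1, with ratios just under 1, lay above 1 under total count scaling.

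The paralogues of the recombinase, which assemble in small complexes that stabilise its filament, ranged from a called XRCC3 to a RAD51B at 1. XRCC3 had 957 counts (ASO-NC) and 584 (ASO-1235), a ratio of 0.721 (0.621 to 0.836), and its partner RAD51C, which takes part in both complexes, was at 0.890 (0.835 to 0.948). The ratio of RAD51C over that of XRCC3 was 1.23 (1.05 to 1.45), and 1.01 (0.866 to 1.19) with the trend on GC content and length removed. XRCC2 was at 0.862 (0.790 to 0.940) and RAD51D, which binds it, at 0.904 (0.787 to 1.04). RAD51B, with 240 and 203 counts, was at 0.999 (0.760 to 1.31), and it lay above 1 under total count scaling. RAD52, which anneals single strands and acts as a back-up mediator, was at 1.11 (0.953 to 1.29). RAD54B, the relative of RAD54L, was at 0.891 (0.709 to 1.12), and the ratio of RAD54L over that of RAD54B was 0.715 (0.519 to 0.984), and 0.879 (0.638 to 1.21) with the trend removed. XRCC3 shares 76.7% of its exon bases with KLC1 on the opposite strand, and RAD54B shares 59.1% with FSBP, so the values of both rest partly on how shared reads were assigned.

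In break sensing and end processing, EXO1 and BLM were lower in the ASO-1235 library and the sensor complex was at or above 1. EXO1, a nuclease of long-range resection, had 2202 counts (ASO-NC) and 1374 (ASO-1235), a ratio of 0.737 (0.669 to 0.812). It was the single call among these 7 genes, where 10.1% of all genes were called lower and 11.0% higher. BLM, the helicase that works with it, was at 0.834 (0.729 to 0.953). WRN, of the same helicase family, was on the other side at 1.15 (1.02 to 1.29). The sensor complex of MRE11, RAD50 and NBN had ratios of 1.05 (0.949 to 1.15), 1.10 (0.879 to 1.38) and 1.13 (1.06 to 1.20), of which the interval of NBN alone excluded 1. RBBP8, which starts resection together with that complex, had 4378 counts (ASO-NC) and 3696 (ASO-1235), a ratio of 0.997 (0.937 to 1.06) that lay above 1 under total count scaling. The median log2 ratio of the 7 was 0.06, and −0.16 after removal of the trend with GC content and length. That removal put all 7 below 1, where 56.4% of all genes were.

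Among the 5 end joining genes LIG4 alone was called, on the higher side, where 11.0% of all genes were. The abundant ones were close to 1. XRCC5 and XRCC6 had ratios of 0.988 (0.954 to 1.02) and 0.976 (0.944 to 1.01), which lay above 1 under total count scaling, and PRKDC, the kinase that Ku recruits, was at 1.02 (0.991 to 1.06) from 15353 and 13313 counts. The intervals of all 3 included 1 on halved counts. On the deposited counts those of XRCC6 (0.9537 to 0.9996) and PRKDC (1.001 to 1.05) excluded it, and with the trend removed XRCC5 was at 0.934 (0.901 to 0.967) and PRKDC at 0.919 (0.889 to 0.9498). LIG4 and XRCC4 form the ligase complex, and the interval of their difference was wide, the ratio of XRCC4 over that of LIG4 being 0.850 (0.562 to 1.29). The interval of XRCC4 is wide because it had 96 and 110 counts.

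Single-strand break repair genes all had ratios below 1, where 52.5% of all genes did. None was called, where 10.1% of all genes were called lower and 11.0% higher. PARP1 had 21785 counts (ASO-NC) and 15774 (ASO-1235), a ratio of 0.855 (0.831 to 0.881), LIG3, the ligase of this route, was at 0.865 (0.803 to 0.932), and its scaffold XRCC1 was at 0.905 (0.787 to 1.04). Under total count scaling the 3 stayed below 1, with a median log2 ratio of −0.11, and with the trend removed XRCC1 lay just above it at 1.01 (0.879 to 1.16). None of the 3 mismatch repair genes was called. MSH6, which recognises single mismatches, was at 0.916 (0.859 to 0.976), and MSH3, which recognises longer loops, at 1.09 (0.944 to 1.26), with a ratio of MSH3 over that of MSH6 of 1.19 (1.02 to 1.39). PMS2, the endonuclease subunit, was at 0.983 (0.902 to 1.07) and above 1 under total count scaling, and this value is uncertain, because PMS2 has many pseudogene copies, of which PMS2P3 had 156 and 68 counts and PMS2P4 had 135 and 135.

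The upstream and downstream checkpoint kinases lay on opposite sides of 1. The upstream kinases ATM and ATR had ratios above 1, ATR with 2554 counts (ASO-NC) and 2384 (ASO-1235) at 1.10 (1.02 to 1.19). The downstream kinases had ratios below 1, CHEK1 with 1578 counts (ASO-NC) and 1168 (ASO-1235) at 0.874 (0.784 to 0.974) and CHEK2 with 700 counts (ASO-NC) and 480 (ASO-1235) at 0.810 (0.685 to 0.957). All 4 intervals excluded 1, those of the upstream pair from above and those of the downstream pair from below. Of all genes, 21.3% had an interval wholly above 1 and 25.1% one wholly below. ATM was the single call of the 4, where 11.0% of all genes were called higher and 10.1% lower. After removal of the trend with GC content and length ATM stood at 1.03 (0.943 to 1.13), an interval that includes 1, and ATR crossed 1 to 0.945 (0.872 to 1.02), while CHEK1 at 0.792 (0.710 to 0.883) and CHEK2 at 0.834 (0.704 to 0.985) stayed below 1. The ratio of ATM over that of ATR was 1.14 (1.01 to 1.28), and 1.09 (0.970 to 1.23) with the trend removed. Over that of PRKDC, the third kinase of the same family, it was 1.22 (1.11 to 1.35), and 1.12 (1.02 to 1.24) with the trend removed.

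The proteins that build the ubiquitin signal on damaged chromatin had ratios from 0.870 to 0.983. MDC1, which reads the phosphorylated histone, was at 0.929 (0.805 to 1.07), and RNF8, the ligase it recruits, at 0.983 (0.832 to 1.16). RNF168, which spreads the mark, was at 0.870 (0.757 to 0.999), and TP53BP1, which binds the mark and favours end joining, at 0.952 (0.864 to 1.05). None of the 4 was called, where 10.1% of all genes were called lower and 11.0% higher. All 4 ratios were below 1, where 52.5% of all genes were, and RNF8 and TP53BP1 were above 1 under total count scaling. The 16 pairs of partners or relatives whose ratios were compared were chosen after the data were seen. No share for other pairs of genes was computed, so the counts that follow only describe these pairs. Of the 16, 6 had a ratio of ratios whose interval, which covers counting error only, excluded 1, with no adjustment for the number of pairs. With the trend removed 6 did as well, of which 2, MSH3 over MSH6 and ATM over PRKDC, were among the earlier 6. The new 4 were XRCC5 over XRCC6 at 0.918 (0.875 to 0.963), XRCC1 over LIG3 at 1.23 (1.05 to 1.43), BRCA2 over PALB2 at 0.814 (0.703 to 0.941) and FANCA over FANCG at 0.881 (0.779 to 0.995).

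**Figure D3:**
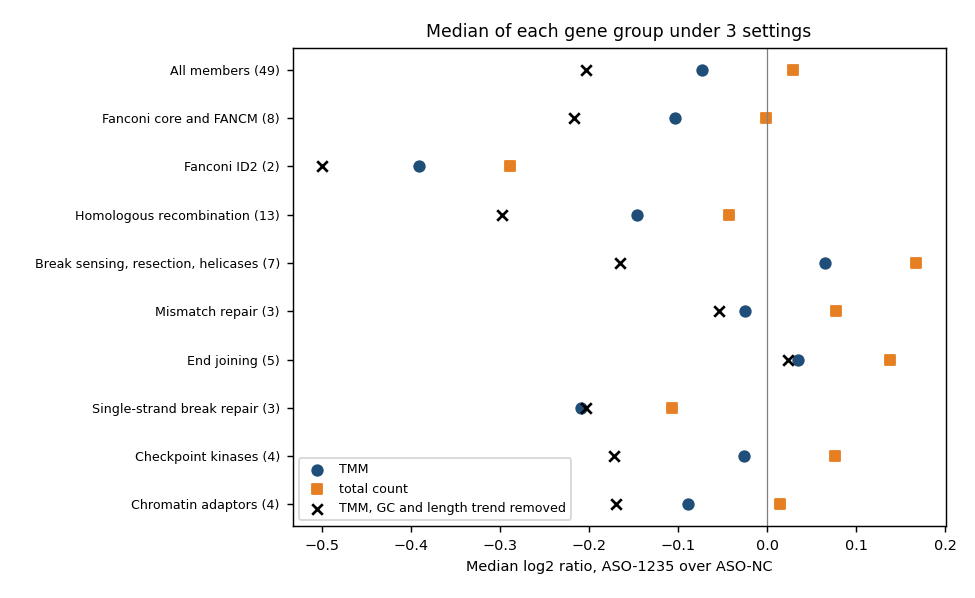
Median log2 ratio of ASO-1235 over ASO-NC in each functional group (number of genes in brackets) with TMM scaling (circles), total count scaling (squares) and TMM with the GC and length trend removed (crosses). The FANCD2 and FANCI pair is lowest under all 3, from −0.50 to −0.29, and the groups for break sensing, mismatch repair, checkpoint kinases and chromatin adaptors lie on both sides of 0.

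The members known to be expressed in S phase had a lower median than the rest. This class of 12 was BRCA1, BRCA2, BARD1, BRIP1, FANCA, FANCD2, FANCI, RAD54L, EXO1, BLM, CHEK1 and MSH6. It was chosen from textbook knowledge, but with earlier results of these data known. Of the 12, 11 had ratios below 1 (52.5% of all genes) and 5 were called lower (10.1% of all genes), with a median log2 ratio of −0.26 and a range of ratios from 0.637 to 1.03. The other 37 had a median of −0.02 (0.08 under total count scaling). Of them 2 were called lower (10.1% of all genes) and 2 higher (11.0% of all genes). The median of the 12 was −0.16 under total count scaling. No test of this difference was made, since genes are not replicates. On a reference list of 20 genes that mark S phase itself, 12 were called lower (10.1% of all genes). All 20 had ratios below 1 (52.5% of all genes), with a median log2 ratio of −0.35. The ratios ran from 0.655 for the thymidine kinase TK1 to 0.952 for the histone mRNA binding protein gene SLBP. The intervals of SLBP and of GINS1, a replication helicase subunit named after its value was seen, included 1. In a bulk sample fewer cells in S phase and less of each RNA per cell cannot be told apart, and the part of cell cycle phase in the members' ratios was not tested.

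**Figure D4:**
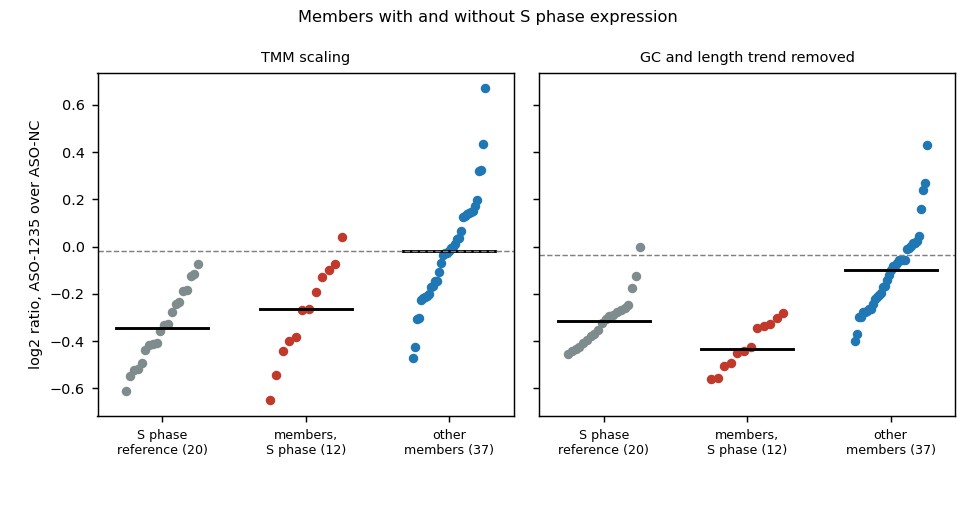
Log2 ratio of ASO-1235 over ASO-NC for 20 S phase reference genes, the 12 members with S phase expression and the other 37 members, before (left) and after (right) removal of the trend with GC content and length; bars are medians and the dashed line is the median of all genes. The medians of the 12 are −0.26 and −0.43, and those of the 37 are −0.02 and −0.10.

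The ratio also followed the base composition of the transcripts. Across the 49 members, the log2 ratio had a Pearson r of −0.57 and a Spearman rho of −0.56 with the GC content of the longest transcript, and across all 13963 genes at 1 CPM with a known composition −0.33 and −0.47. These are correlations across genes of the same libraries, which are not independent. The 21 members under 42% GC, such as LIG4 (36.2%), ATM (39.1%) and BRCA2 (36.3%), had a median log2 ratio of 0.03, and all genes of that class had 0.17. The 9 members at 50% GC or more, such as XRCC3 (63.8%), FANCG (58.1%) and FANCA (55.4%), had ratios below 1 without exception and a median of −0.31, and all genes of that class had −0.16. The 19 in between had −0.07, beside 0.02 for all genes. In each class the median of the members thus lay below that of all genes. Transcript length had a weak relation with the ratio among the members (Pearson r 0.05, Spearman rho 0.08).

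**Figure D5:**
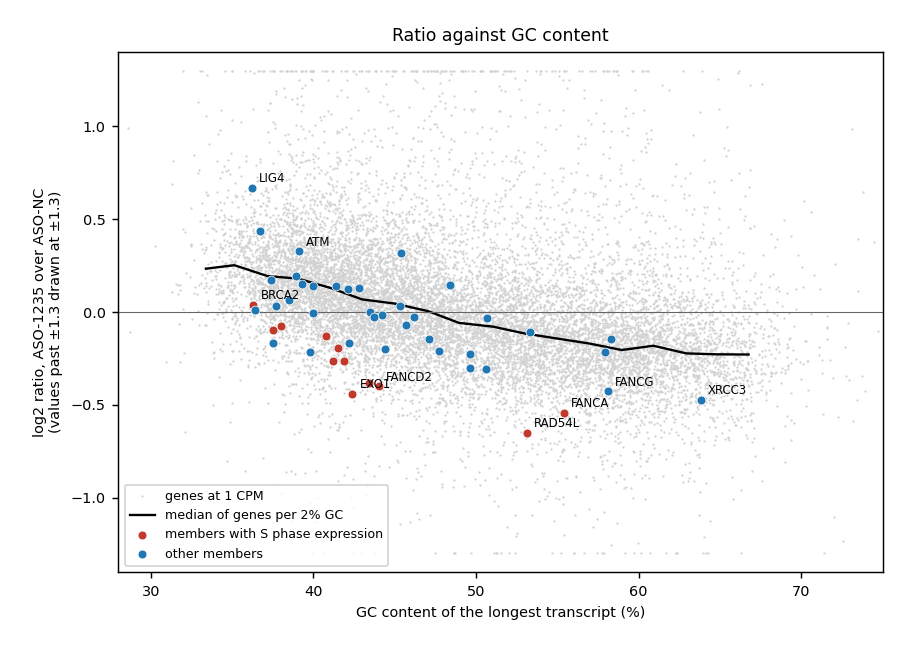
Log2 ratio of ASO-1235 over ASO-NC against the GC content of the longest transcript, in grey for genes at 1 CPM (the most extreme drawn near the edge) with their median per 2% GC (black line), in red for the 12 members with S phase expression and in blue for the other 37. Members follow the downward slope of all genes, and the red points lie below the line at the same GC content.

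With the trend on GC content and length removed, the list of called members changed. Of the 9 called, 6 remained called the same way: FANCA, FANCD2, FANCI, RAD54L, EXO1 and LIG4. FANCG at 0.832 (0.783 to 0.884), XRCC3 at 0.814 (0.701 to 0.943) and ATM were no longer called. Newly called lower were 7: BRCA1 at 0.737 (0.677 to 0.802), BRIP1 at 0.789 (0.727 to 0.856), XRCC2 at 0.759 (0.696 to 0.828), RAD54B at 0.773 (0.615 to 0.969), BLM at 0.745 (0.651 to 0.852), MSH6 at 0.797 (0.748 to 0.850) and CHEK1. After this step 40 of the 49 had ratios below 1, where 56.4% of all genes did, and 28 had an interval wholly below 1 (23.8% of all genes) and 2 one wholly above (14.8%). Ratios passed from above 1 to below for 10 members: FANCB, FANCM, BRCA2, MRE11, RAD50, NBN, WRN, MSH3, PRKDC and ATR. The opposite held for 2, XRCC6 and XRCC1. In all, 12 were then called lower, where 6.81% of all genes were, and 1 higher, where 7.43% were. Of the 12 members with S phase expression 10 were called lower and the remaining pair, BARD1 at 0.812 (0.738 to 0.893) and BRCA2 at 0.822 (0.744 to 0.908), had intervals below 1. LIG4, at 1.35 (1.16 to 1.57), was the member called higher, and RAD54L was at 0.679 (0.534 to 0.859). No member then passed 1.5-fold, where 1.53% of genes were lower and 4.05% higher. The part of base composition in the ratios was not tested beyond this removal.

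Genes that share exons with others make some of these values uncertain, because the strand setting of the counting matters there (not given in the sources used here). More than 5% of the exon bases were shared with another annotated gene for 18 members. Of the 7 members called lower, 4 were among them: FANCA shares 23.6% with ZNF276, RAD54L 25.1% with LRRC41, XRCC3 76.7% with KLC1 and FANCI 5.90% with POLG, each on the opposite strand. The partners had ratios of 0.827 for ZNF276, 0.910 for LRRC41, 0.908 for KLC1 and 0.846 for POLG, all closer to 1 than the members. FANCD2, EXO1 and FANCG were called lower without an overlap over 5%, and LIG4 and ATM, called higher, had none over 5% either.

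The same pathways hold 81 further genes on lists fixed by function, of which 80 reached 1 CPM, and 20 were called lower and 7 higher, where 10.1% and 11.0% of all genes were. Among 19 other Fanconi pathway genes at 1 CPM, 7 were lower, including the histone-fold gene CENPX at 0.722 (0.676 to 0.772), the nuclease gene MUS81 at 0.727 (0.648 to 0.816), EME2, which encodes a partner of MUS81, at 0.734 (0.668 to 0.807), and the nuclease scaffold gene SLX4 at 0.761 (0.658 to 0.879). On the other side were the nuclease gene ERCC4 at 1.36 (1.17 to 1.57) and REV3L, a translesion polymerase, at 1.27 (1.18 to 1.36). With the trend on GC content and length removed none of these 6 stayed called, CENPX being at 0.845 and ERCC4 at 1.17. Then 1 Fanconi gene of the 19 was called lower, where 6.81% of all genes were. It was UBE2T, the ubiquitin-conjugating enzyme of the pathway, at 0.726 (0.654 to 0.804), named after its value was seen. Of 21 other recombination genes, 4 were lower, the helicase genes RTEL1 at 0.710 (0.532 to 0.943) and RECQL5 at 0.799 (0.710 to 0.899), RMI2, a partner of BLM, at 0.726 (0.645 to 0.816), and ZSWIM7 at 0.747 (0.618 to 0.901). SFR1, an accessory factor of the recombinase, was higher at 1.46 (1.17 to 1.81).

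Of 11 other end joining genes, 2 were higher at 1.5-fold, where 4.72% of all genes were. NHEJ1, which bridges ends together with XRCC4, rested on 38 and 77 counts and was at 2.39 (1.35 to 4.39), and APLF, which binds Ku, rested on 109 and 142 and was at 1.54 (1.07 to 2.23). DCLRE1C, which encodes an end-processing nuclease, was lower at 0.752 (0.663 to 0.853). Of 20 other checkpoint genes, 6 were lower, where 10.1% of all genes were. They included RAD9A of the checkpoint clamp at 0.691 (0.640 to 0.745) and the histone gene H2AX at 0.700 (0.663 to 0.739). Also among the 6 were the fork protection gene TIMELESS at 0.713 (0.672 to 0.756) and the phosphatase gene CDC25B at 0.714 (0.673 to 0.756). The 2 called higher, where 11.0% of all genes were, were ETAA1, an activator of ATR, at 1.28 (1.07 to 1.54), and PPM1D, the phosphatase that ends the response, at 1.27 (1.19 to 1.36). In single-strand break and mismatch repair LIG1, the replicative ligase, was the 1 call of 9 genes, at 0.728 (0.674 to 0.786), where 10.1% of all genes were lower. After removal of the trend 12 of the 80 were called lower and 2 higher, where 6.81% and 7.43% of all genes were. Besides the Fanconi genes, RTEL1, RECQL5, H2AX, APLF, ETAA1 and PPM1D were then no longer called, and SFR1 and NHEJ1 were the 2 still called higher.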

How the data were processed

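Polyadenylated RNA was sequenced in 2 libraries. The values are whole-number counts for each gene, deposited by the authors without a visible normalization. Per the submitters' processing notes the tools were STAR 2.7.11a and featureCounts 2.0.6 with hg38, while annotation, strand setting and filters were not stated (not given in the sources used here). Of the IDs, 1 had no counts and was left out, and 62699 were matched to symbols. Depth was 48092494 and 37916307 counts. Among genes with 1 to 1000 counts, 67.5% and 64.0% of counts were even, so intervals were taken on counts divided by 2. Reads carried no molecular identifiers, so intervals cover counting error only.

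TMM factors were computed over all genes of the table (edgeR 4.0.16 in R 4.3.3). edgeR and DESeq2 1.42.0 served for scaling alone. Calls required 1 CPM in at least 1 library, and median log2 ratios used a prior count of 0.5. Positions, length, GC content and overlaps came from GENCODE 29 on GRCh38 (the same assembly as hg38). The trend on GC content and log2 length was fitted by robust regression on B-splines (5 degrees of freedom each, statsmodels 0.14.6) over genes at 1 CPM, of which 97.7% had both values. The calculation was tested on simulated data. Members and lists were chosen with earlier results of these data known. All 49 members are named. Of the other repair genes up to 4 each way per list were named, by size of change among those called, besides LINC01235, ERBB2 and examples of the S phase and marker lists. Some genes on these lists are not reported here. The pairs, their values with the trend removed, GC classes, windows shown and overlap partners were chosen after seeing the data. Other software was scipy 1.17.1, pandas 2.3.3 and numpy 2.4.6 under Python 3.11.15.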

Additional observations from a re-analysis of the deposited data

How the results depend on the processing

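No paired analysis was possible because each group has 1 library. Alternatives were DESeq2, upper quartile and total count scaling, no minimum or a minimum of 5 CPM, intervals on the deposited counts, a prior count of 5 and removal of the GC and length trend. TMM over genes at 1 CPM, removal of the GC or the length trend alone, and leaving out the members that share exon bases were added after the data were seen. No ratio of a called member crossed 1 in any of them, but 10 of the 49 members, none of them called, crossed a ratio of 1 under another scaling.

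At 1.5-fold, LIG4 was lost as the 1 higher member after removal of both trends or of the GC trend alone (0 members). The lower count at 1.5-fold was 0 with total count scaling, after removal of both trends, with the GC trend removed and without members sharing exon bases, and 2 with the length trend removed. At the milder threshold, the higher count was 1 with DESeq2 size factors and after removal of both trends or of the GC trend alone. The lower count was 12 after removal of both trends, 11 with the GC trend removed and 3 without members sharing exon bases. Of the other repair genes, 11 were higher and 11 lower with total count scaling, 2 and 12 after removal of both trends, and 2 and 13 with the GC trend removed. After removal of both trends 7.43% of all genes were higher and 6.81% lower at the milder threshold. At 1.5-fold 4.05% were higher and 1.53% lower. Shares of all genes called under the other alternatives are not given here, so their counts have no background beside them. The median log2 ratio for break sensing, resection and helicases was −0.16 after removal of both trends and −0.14 after that of GC alone. That of end joining was 0.14 with total count scaling, and after removal of both trends that of checkpoint kinases was −0.17 and that of members with S phase expression −0.43. Upper quartile scaling, TMM over genes at 1 CPM, both other minimums, the deposited-count intervals and the prior of 5 moved none of these counts or medians beyond the limits used. At this depth the interval of XRCC4, with 96 and 110 counts, ran from 0.902 to 2.04, so differences of that size were not detectable in the scarcest members.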
